A study of Mus musculus with 3 samples.

Results

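Thymocytes carrying transcripts of the TCRδ constant gene Trdc together with Nkg7, and few or none of the transcripts that mark the Sox13 programme, formed a group of 980 cells among the 21879 cells of adult mouse thymus that lay within the limits on genes and mitochondrial counts (4.48%). A cell was taken when it held at least 2 unique molecular identifiers (UMIs, each standing for 1 captured transcript) of Trdc, at least 2 summed over Il2rb, Ccl5, Nkg7 and Xcl1, at most 1 summed over Sox13, Etv5 and Blk, at most 1 of Trac, and none of Il2ra. These measured values chose the cells, so the levels of the 10 genes are given below as a description, with no test. The rule was written for γδ cells of type 1, but the cells went against that name. Nkg7 carried the choice in nearly every cell, Il2rb, Ccl5 and Xcl1 were each found in a minority of cells in every run, and Tbx21, which encodes the type 1 factor T-bet, was close to absent. They are therefore called Trdc+ Nkg7+ cells here, by the genes that chose them.

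Cells came from C57BL/6 mice of 6 weeks, were captured with droplet 3′ single-cell RNA sequencing, and made 1 library in each of 3 runs, with the thymi of 4 mice pooled for each. The first run held all CD4- CD8- double negative (DN) cells together with TCRγδ+ thymocytes. The second held DN1 and DN2 cells, with those staining for TCRγδ left out. In the third, DN1 and DN2 cells, DN3 cells and TCRγδ+ cells were sorted apart and mixed again. The gates of each run also left out cells staining for TCRβ, NK1.1, B220, CD11b or CD11c. No animal was treated or carried a mutation, and the runs were not replicates of one another, since the gates differed. The Trdc+ Nkg7+ cells numbered 183, 494 and 303 in these libraries, called runs 1, 2 and 3 below, and their summed depth was 1040342, 3149908 and 2835536 UMIs. Cells with Trdc of 2 or more and at least 2 UMIs summed over Sox13, Etv5 and Blk served for comparison and are called the Sox13 set (276, 619 and 1057 cells). Of cell barcodes, 72 were shared between runs 1 and 2 and 3 between runs 1 and 3, and no barcode was a Trdc+ Nkg7+ cell in both of a pair.

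γδ T cells branch from DN progenitors in the thymus, and many leave it already set for a main cytokine. Those of type 1 make interferon-γ and carry the IL-2 and IL-15 receptor chain CD122 (Il2rb), T-bet and receptors shared with natural killer (NK) cells, whereas those of type 17 depend on Sox13 and Maf. The TCRδ and TCRγ constant genes are also transcribed in DN progenitors before a receptor is made, so that a Trdc transcript alone does not mark a γδ T cell. Nkg7 encodes a membrane protein of cytotoxic granules.

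Nkg7 was the gene through which most cells entered. An Nkg7 UMI was present in 97.8%, 98.99% and 98.0% of them in runs 1, 2 and 3. Il2rb was present in 11.5%, 11.9% and 49.2%, so that run 3 stood well above the others. The methods name 2 versions of the 10x kit, and which made each run is not given in the sources used here, so that chemistry, gate and depth cannot be told apart in this or any other difference between runs. Ccl5, a chemokine of memory and effector lymphocytes, was present in 4.92%, 11.7% and 17.2%, and Xcl1, which draws cross-presenting dendritic cells, in 6.01%, 10.7% and 11.6%. UMIs of all 4 genes occurred together in 0 of 183, 8 of 494 and 15 of 303 cells. The 0 of the first run allows a share of up to 1.996% by the exact binomial (Clopper-Pearson) interval at 95%, and such intervals cover counting error only.

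**Figure D1:**
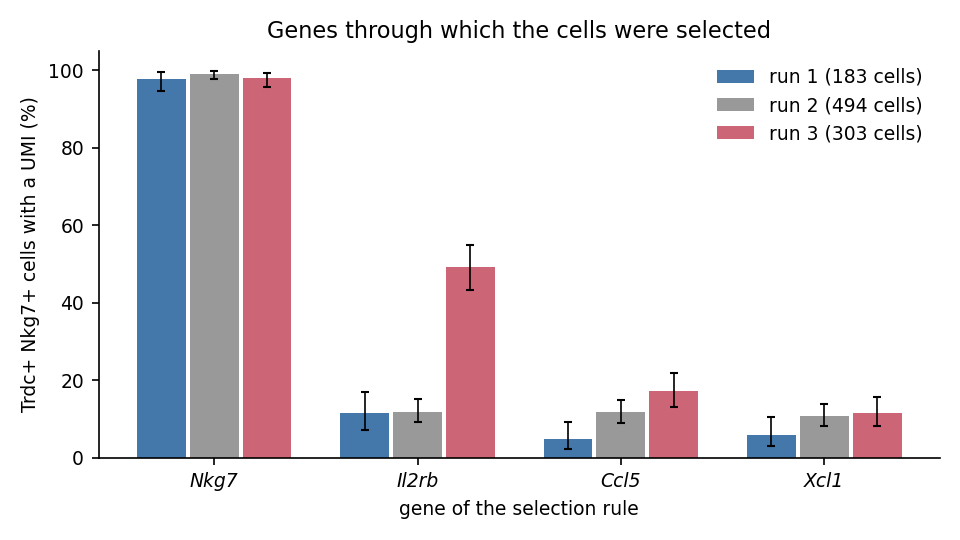
Percent of Trdc+ Nkg7+ cells (vertical axis) with at least 1 UMI of each of the 4 genes summed in the rule, in each run. Bars begin at 0 and error bars are exact 95% binomial intervals. Nkg7 stands at 97.8% or above in each run, while Il2rb reaches 49.2% in the third run and 11.5% and 11.9% in the others.

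The boundary of the group lay in a dense part of the data. In the first run 92 of the 183 cells had a sum of exactly 2 over the 4 genes, and 220 cells that met every other condition stood just outside with a sum of 1. The corresponding numbers were 174 inside and 220 outside in the second run, and 51 inside and 63 outside in the third. Dntt, in CPM (UMIs of a gene scaled to 1000000 UMIs summed over a group of cells), stood at 1029, 1697 and 805 in the cells just inside and 1003, 1791 and 859 just outside. Klf2 stood at 117, 211 and 189 CPM inside and 49.5, 251 and 153 CPM outside, and Cd160 at 18.5, 10.8 and 26.8 CPM inside and 13.02, 7.87 and 31.5 CPM outside. Across this limit Dntt was close on both sides, while Klf2 in run 1 was higher inside. Cells that met all other conditions but held exactly 1 UMI of Il2ra, the gene of the IL-2 receptor α chain that DN2 and DN3 cells bear, numbered 143, 443 and 153. Across that limit Dntt and Cd160 differed more, here between the whole group and the cells turned away. Dntt stood at 894, 1460 and 391 CPM in the group and 1287, 1679 and 1253 CPM in the cells turned away, and Cd160 at 35.6, 21.0 and 91.0 CPM against 12.4, 3.36 and 16.7 CPM. The order of Cd160 was not the same at every limit. At the limit on Trdc it stood at 0, 14.2 and 39.6 CPM just inside and 18.4, 43.4 and 53.4 CPM just outside. Dntt there stood at 934, 1600 and 1081 CPM inside and 1190, 1391 and 683 CPM outside. At the limit on Trac, Cd160 stood at 56.0, 81.1 and 112 CPM inside and 26.8, 138 and 148 CPM outside.

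Among all cells within the limits, the Trdc+ Nkg7+ cells made up 3.32% (95% interval 2.86 to 3.82) in run 1, 5.58% (5.11 to 6.08) in run 2 and 4.03% (3.6 to 4.50) in run 3. The highest share was thus in the run sorted without TCRγδ+ cells. Of cells with Trdc of 2 or more, they made up 5.77%, 11.2% and 7.95%. Neither gene of the rule was rare. Trdc of 2 or more occurred in 57.5%, 50.01% and 50.7% of cells within the limits, and in 6.60% of the B cells of the third run, which should lack it. Nkg7 of 2 or more occurred in 17.5%, 57.1% and 54.8% of cells, and in 7.09% of those B cells. A sum of 2 or more over the 4 genes was found in 12.7% of cells with no Trdc and 21.0% of cells with 2 or more in run 1, in 67.9% and 56.3% in run 2, and in 55.9% and 63.6% in run 3. The sorts differed between runs, so a difference in share between runs cannot be told apart from the gates and the depth. The median cell of the group held 4488, 5608.5 and 7913 UMIs, against 6059, 3508 and 8254 in the Sox13 set.

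The Trdc+ Nkg7+ cells fell into 2 kinds by the genes that admitted them. Cells with Nkg7 as the only one of the 4 genes numbered 150, 373 and 129 (82.0%, 75.5% and 42.6%), and cells that bore an Il2rb, Ccl5 or Xcl1 UMI numbered 33, 121 and 174. The split uses measured values of the same cells and was made after they were seen, so the levels are a description without a test. Median depth was 4571, 5929 and 7858 UMIs in the first kind and 4242, 4037 and 7968.5 in the second. The highest 8% of doublet scores in each run took in 12.7%, 8.58% and 5.43% of the first kind and 12.1%, 15.7% and 12.1% of the second. The part of doublets in the levels below was not tested.

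Of 14 genes of DN2 and DN3 cells that were high enough to test against the Sox13 set, 10 were higher in the cells with Nkg7 alone in each run and 2 (Kit and Dtx1) were higher in the bearing cells in each run. Of all 9601 genes so tested the shares were 20.8% and 16.8%. Cell cycle genes were the most one-sided list in this direction, with 13 of 16 higher in the cells with Nkg7 alone in each run and 0 the other way, though by little (median log2 ratios of 0.08, 0.41 and 0.48). Dntt encodes the terminal transferase that adds bases at receptor joints, and it stood at 999, 1616 and 719 CPM in these cells against 429, 873 and 127 CPM in the bearing cells. Cd24a, a gene of the maturation list that encodes a surface protein lost as thymocytes mature, stood at 509, 876 and 295 against 324, 573 and 94.96 CPM. Hes1, a target of Notch signalling, stood at 151, 388 and 79.0 against 68.0, 191 and 14.7 CPM. Cpa3, a carboxypeptidase gene read in early progenitors as well as mast cells, stood at 158, 437 and 167 against 36.6, 241 and 51.0 CPM. For these 4 genes the order of the kinds held in each run, with the widest ratio in the third run for Dntt, Cd24a and Hes1.

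The NK receptor genes high enough to test against the Sox13 set numbered 7 of 22. Of these, 5 were so in both Trdc+ Nkg7+ libraries of runs 1 and 3 but not in both of the Sox13 set. These 5 were thus tested through the group that holds the bearing cells, and the count below is no measure of the list. All 7 were higher in the bearing cells in each run, as were 13 of 23 maturation and exit genes and 5 of 11 factors tied to type 1 cells. Markers of NK cells moved with this split. The 10 markers summed to 146, 365 and 279 CPM in the bearing cells, with Fcer1g the most abundant, against 4.71, 37.0 and 24.5 CPM in the cells with Nkg7 alone, and their part in these levels was not tested. In the maturation list 5 genes ran the other way in each run, among them Cd24a, Thy1, Klf3 and Ly6e, whose level was 1625, 2059 and 1113 CPM with Nkg7 alone against 1223, 1517 and 806 CPM. Klf2, the factor that switches on the exit receptor S1pr1, stood at 382, 464 and 384 CPM in the bearing cells against 119, 223 and 218 CPM in the cells with Nkg7 alone. S1pr1 itself stood at 36.6, 16.6 and 114 against 20.02, 2.81 and 81.3 CPM. Cd160, an NK receptor gene, stood at 120, 75.6 and 139 against 16.5, 6.43 and 31.6 CPM, and Tnfrsf9, which encodes the costimulatory receptor 4-1BB, at 152, 145 and 61.2 against 8.24, 11.2 and 14.2 CPM. Id2, a repressor of E proteins that innate lymphocytes need, stood at 99.3, 307 and 214 against 17.7, 55.0 and 38.7 CPM. Cd7 stood at 267, 346 and 223 against 16.5, 30.9 and 42.6 CPM, and Cd52 at 1323, 1371 and 1950 against 332, 266 and 982 CPM. For each of these 7 genes, picked after their values were seen, the bearing cells were the higher kind in each run, the second included.

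**Figure D2:**
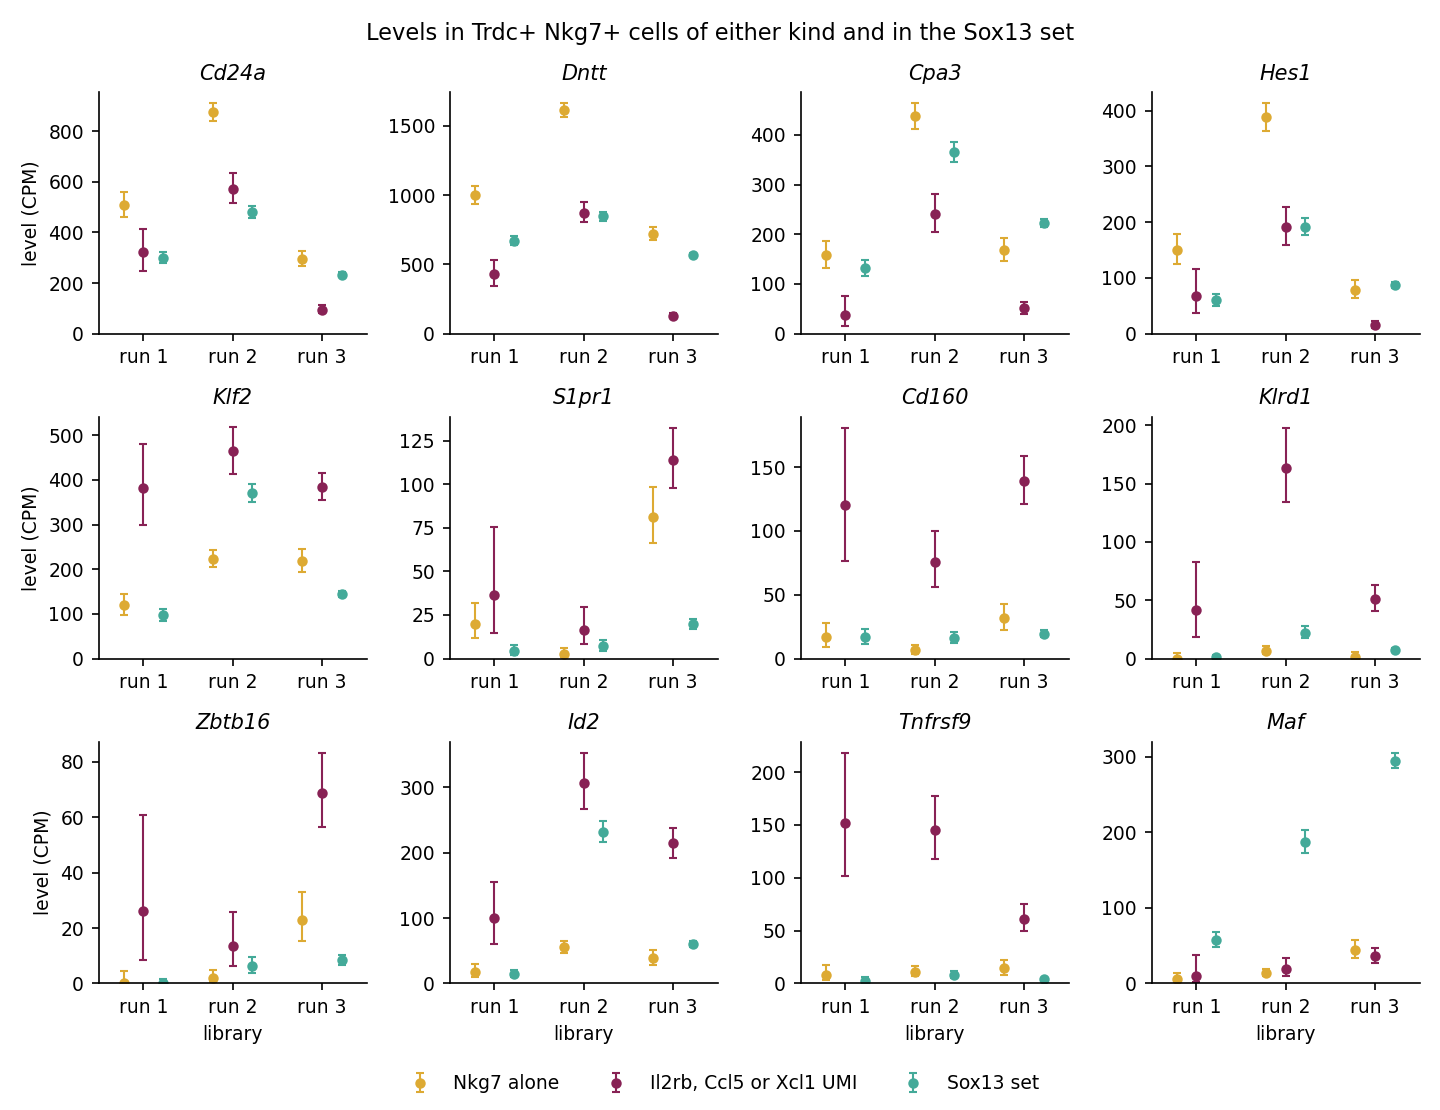
Levels in CPM (vertical axes, one scale per gene) of 12 genes by run in the cells with Nkg7 alone, the cells bearing an Il2rb, Ccl5 or Xcl1 UMI, and the Sox13 set. Points are summed libraries and error bars are exact 95% Poisson intervals, which cover counting error only. Dntt and Cd24a lie higher in the cells with Nkg7 alone, Klf2, Cd160 and Tnfrsf9 in the bearing cells, and Maf in the Sox13 set.

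The factors and products that define type 1 cells were low even among the cells chosen for them. Tbx21 gave 1, 9 and 4 UMIs in the 3 runs, or 0.961, 2.86 and 1.41 CPM. Eomes, its relative in NK and memory cells, gave 1, 15 and 55 UMIs (0.961, 4.76 and 19.4 CPM). The 55 UMIs of the third run came from 22 cells, and the Eomes level was 35.1 CPM in the bearing cells and 0 CPM in those with Nkg7 alone. Ifng, the gene of interferon-γ, stood at 1.92, 7.62 and 22.9 CPM and was detected in 1, 19 and 28 cells, with 18 of its 65 UMIs in the third run from a single cell. Il17a, the type 17 cytokine gene, gave 0 UMIs in the Trdc+ Nkg7+ cells of each run, and 0, 5.27 and 4.94 CPM in the Sox13 set. At these depths a cell without a UMI of Tbx21, Eomes or Ifng cannot be read as a cell without the transcript.

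Xcl1 and Ccl5 UMIs were gathered in few cells. In the first run 65 Ccl5 UMIs came from 9 cells, 35 of them from 1 cell, and the Xcl1 UMIs came from 11 cells, 61 of them from 1 cell. Ccl5 stood at 62.5, 157 and 183 CPM over the whole group and Xcl1 at 118, 53.0 and 40.2 CPM. A CPM of either gene over the group therefore describes a small subset of its cells.

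Receptor transcripts were those of γ and δ genes with the β constant genes beside them. Trdc, on chr14:54142851-54148868 (mm10, plus strand), stood at 1046, 1009 and 1088 CPM, a level the rule set in part. Of the γ constant genes, Tcrg-C1 stood at 904, 1756 and 350 CPM in the Trdc+ Nkg7+ cells and 642, 1405 and 488 CPM in the Sox13 set, and Tcrg-C2 at 852, 1325 and 341 CPM in the former. Tcrg-C4, the constant gene joined to Vγ1.1, stood at 630, 651 and 390 CPM against 493, 526 and 308 CPM in the Sox13 set. The Trdc+ Nkg7+ cells were the higher of the pair in each run for Tcrg-C4, whereas for Tcrg-C1 the order turned between run 1 and run 3. The 4 constant genes are shown over bases 151 to 240 of their first exon, to show how alike they are. Positions are on chromosome 13 of mm10, the sequence follows the transcript, and capitals mark bases that differ from Tcrg-C1 (3 in Tcrg-C2, 6 in Tcrg-C3 and 25 in Tcrg-C4).
Tcrg-C1, chr13:19214253-19214342, plus strand: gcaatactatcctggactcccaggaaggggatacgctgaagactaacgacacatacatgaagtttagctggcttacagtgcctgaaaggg
Tcrg-C2, chr13:19307312-19307401, minus strand: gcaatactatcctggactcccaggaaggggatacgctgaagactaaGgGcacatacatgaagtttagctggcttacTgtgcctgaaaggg
Tcrg-C3, chr13:19261035-19261124, plus strand: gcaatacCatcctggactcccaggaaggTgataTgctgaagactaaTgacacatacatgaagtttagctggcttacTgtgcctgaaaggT
Tcrg-C4, chr13:19344708-19344797, plus strand: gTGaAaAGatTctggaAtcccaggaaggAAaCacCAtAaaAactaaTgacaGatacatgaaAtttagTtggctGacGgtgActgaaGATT
Over the 330 bases of that exon Tcrg-C1 was 97.3% identical to Tcrg-C2 and 96.1% to Tcrg-C3, but 82.1% to Tcrg-C4. Levels of Tcrg-C1, Tcrg-C2 and Tcrg-C3 are given as uncertain, since counting may split reads among near-identical copies. The 3′ ends, where these reads lie, were not compared. In this exon Tcrg-C4 is the one of the 4 that stands apart in sequence.

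Variable segments gave far fewer counts. Tcrg-V1, which encodes Vγ1.1, stood at 18.3, 4.44 and 48.3 CPM in the Trdc+ Nkg7+ cells and at 21.2, 10.3 and 26.0 CPM in the Sox13 set. Within the group it was 47.0, 12.1 and 70.7 CPM in the bearing cells and 11.8, 2.41 and 20.5 CPM in those with Nkg7 alone. The bearing cells were thus the higher kind in each run, and the second run was lowest throughout. Trgv2, which encodes Vγ1.2, stood at 40.4, 12.4 and 205 CPM against 48.5, 30.2 and 233 CPM in the Sox13 set. Tcrg-V4, which encodes Vγ2, stood at 0, 0.952 and 25.0 CPM against 4.15, 2.64 and 39.6 CPM. Of the δ segments, Trdv2-2 reached 12.0 CPM and Trdv5 11.6 CPM in the third run, with 1.59 and 0.317 CPM in the second. The lesser segments Tcrg-V3 (10 UMIs), Tcrg-V7 (5), Trdv1 (5) and Trdv4 (9) were found chiefly in the third run. The second run, sorted without TCRγδ+ cells, had the lowest Tcrg-V1, Trgv2, Trdv2-2 and Trdv5 levels of the 3 runs.

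**Figure D3:**
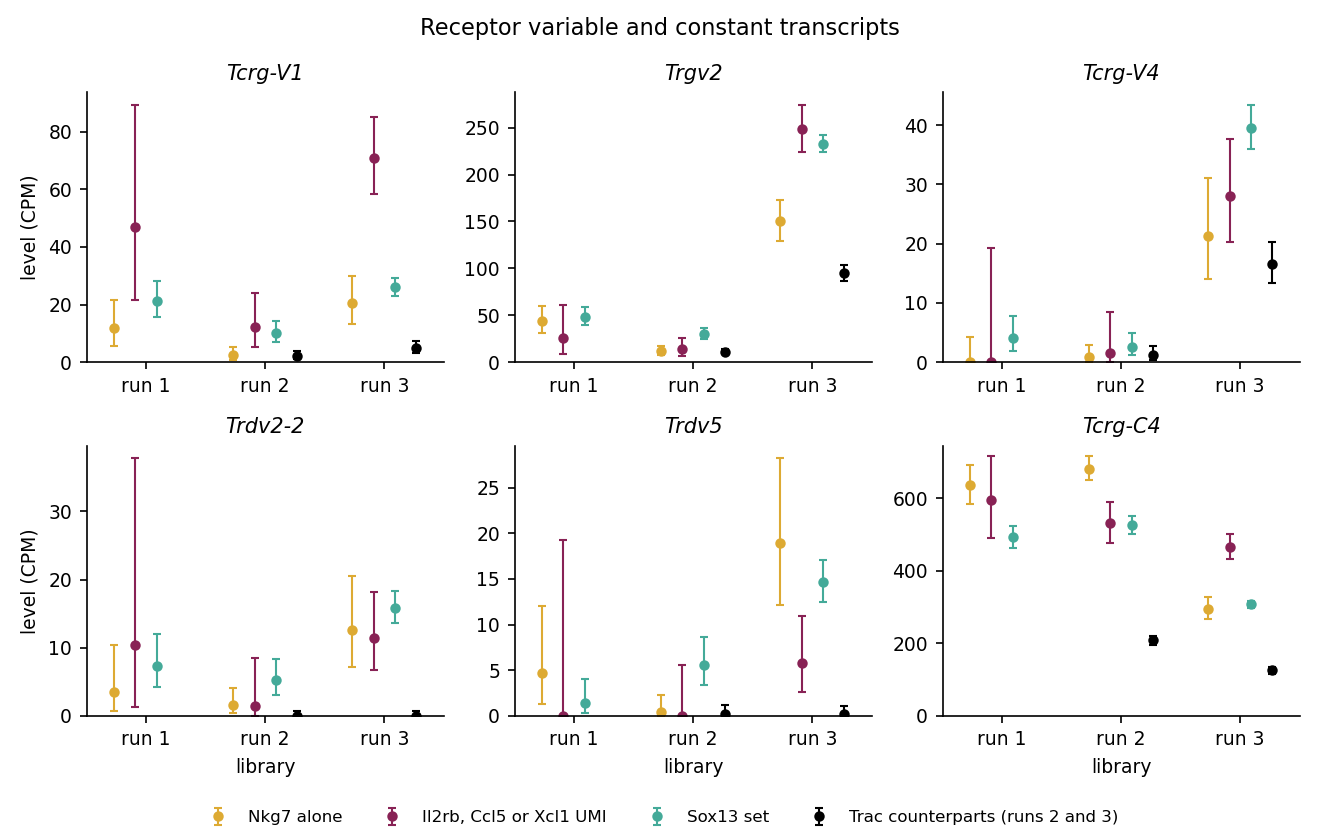
Levels in CPM (vertical axes, one scale per gene) of 5 variable segments and the constant gene Tcrg-C4 by run, in the 2 kinds of Trdc+ Nkg7+ cells, the Sox13 set and the Trac counterparts of runs 2 and 3. Points are summed libraries and error bars exact 95% Poisson intervals. Tcrg-V1 in the bearing cells of run 3 (70.7 CPM) lies above the Sox13 set (26.0 CPM), and the variable segments are low in run 2.

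To find which genes travelled with the rule, summed counts of the Trdc+ Nkg7+ cells and the Sox13 set were compared over runs 1 and 3, with the run as a block and the 10 rule genes left out. Of 9601 genes tested, 465 (4.84%) passed an adjusted p of 0.05 in edgeR's quasi-likelihood test, 266 (2.77%) higher and 199 (2.07%) lower in the Trdc+ Nkg7+ cells. Both groups were chosen on transcripts of the same cells, the lists below were drawn up with earlier results of these data known, and the fit left 1 residual degree of freedom, so that nearly all information on spread came from the other genes. DESeq2 called 53 genes. Without the run as a block edgeR called none, with 62 genes at an unadjusted p under 0.05. With the second run in place of run 1 the count was 52, and in place of run 3 it was 133. A gene was tested when it reached 4.04 CPM in 2 of the 4 libraries, and 321 of the 9601 did so in both libraries of the Trdc+ Nkg7+ cells but not in both of the Sox13 set, and 406 the reverse. The median log2 fold change over all genes tested was -0.03, and fold changes below are log2 values of the Trdc+ Nkg7+ cells over the Sox13 set, with their standard errors and edgeR's adjusted p.

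NK receptor genes were mostly too low to test, with 7 of 22 reaching the filter. Of these 7, 5 reached it in both libraries of the Trdc+ Nkg7+ cells and not in both of the Sox13 set, so that the filter favoured this direction and the 6 called higher, with none lower, are no measure of the list. By level alone, tested or not, 15 of the 22 were higher in both runs and 1 was lower in both, against 21.9% and 20.1% of all 15451 genes with a count. Cd160 differed by 1.89 ± 0.21 (adjusted p = 1.35e-13), with 35.6 and 91.0 CPM in runs 1 and 3 against 16.6 and 19.3 CPM. Klre1 differed by 2.995 ± 0.45, Klra1 by 2.32 ± 0.36, Klrd1 by 1.995 ± 0.33, Cd244a by 1.74 ± 0.52 and Klrk1 by 1.30 ± 0.34. These levels were small, and the Klre1 UMIs of the first run came from 3 cells. The adaptors through which such receptors signal, Fcer1g and Tyrobp, differed by 1.98 ± 0.25 and 1.90 ± 0.30, and these too reached the filter in only 1 library of the Sox13 set. Cells with at least 2 of Ncr1, Klrb1c, Klre1, Klrd1, Tyrobp and Fcer1g numbered 4, 40 and 32 (2.19%, 8.10% and 10.6%), and in the third run 10 of the 32 held Eomes as well.

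Effector genes did not share a direction. Of 10 tested, 5 were higher and 1 lower, with a median of 0.91. Ccl3 was higher by 3.96 ± 0.45 and Ccl4 by 1.20 ± 0.24, both chemokines of activated lymphocytes. Ccl3 reached the filter in no library of the Sox13 set, so that it was tested through the Trdc+ Nkg7+ libraries alone. In the first run all 9 Ccl3 UMIs came from 1 cell and 53 of the 63 Ccl4 UMIs from 1 cell, and in the second run Ccl4 was lower (29.5 against 75.9 CPM). In the third, 1 cell held 32 of the 99 Ccl4 UMIs. The share of cells with a Ccl4 UMI was below that of the Sox13 set in both fitted runs (1.64% against 3.99%, and 8.25% against 13.6%). Ctsw, which encodes a protease of cytotoxic cells, was higher by 1.58 ± 0.15 (64.4 and 235 CPM against 24.0 and 73.3 CPM), Prf1 by 1.30 ± 0.40 and Ifng by 1.19 ± 0.35. Prf1 had 0 UMIs in both groups of run 1, so that its call rests on run 3, and Ifng had 2 UMIs from 1 cell there against 0. In the second run neither was higher, with Ifng at 7.62 against 11.1 CPM and Prf1 at 0.317 against 0.586 CPM. Gzma, a granzyme gene, was lower by -2.42 ± 0.10 (adjusted p = 8.59e-51). Its level was 596, 249 and 237 CPM in the Trdc+ Nkg7+ cells of the 3 runs against 1788, 1058 and 2102 CPM in the Sox13 set, and the groups did not overlap. The list named for cytotoxic effectors thus held its widest fall in a granzyme.

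Among transcription factors tied to type 1 cells, 4 of 11 tested were higher and none lower, with a median of 0.23. Among them, Id2 was higher by 1.13 ± 0.17, Ikzf2, which encodes Helios, by 0.99 ± 0.10 and Ikzf3, which encodes Aiolos, by 0.92 ± 0.20. Ikzf2 stood at 331 and 798 CPM against 176 and 367 CPM. In the second run Id2 was lower (108 against 232 CPM) and Ikzf2 stood at 254 against 229 CPM, and the list summed to 621 against 812 CPM. Tbx21 and Eomes did not pass the filter on low counts.

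Type 17 genes were lower in 8 of 12 tested and higher in 1, with a median of -0.94. Maf differed by -2.96 ± 0.18 (adjusted p = 1.73e-33) and stood at 6.73, 15.2 and 39.5 CPM against 57.7, 187 and 295 CPM. It was lower in the second run as well, which took no part in the fit. The scavenger receptor genes Cd163l1 (-1.71 ± 0.20) and 5830411N06Rik (-1.47 ± 0.15), the IL-1 receptor gene Il1r1 (-2.01 ± 0.45), and Rora (-0.97 ± 0.19), Icos (-0.90 ± 0.26) and Tmem176a (-0.72 ± 0.22) were lower too. The exception was Zbtb16, which encodes PLZF, a factor of innate-like lymphocytes, at 2.57 ± 0.31 higher (4.81 and 48.3 CPM against 0 and 8.38 CPM). In the second run Zbtb16 was not higher (4.44 against 6.15 CPM). Of the 12 genes, 3 reached the filter in both libraries of the Sox13 set alone and 1 in both of the Trdc+ Nkg7+ cells alone. The Sox13 set was itself chosen on Sox13, Etv5 and Blk, and the part of that choice in these levels was not tested.

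Of 12 γδ genes that the study itself named, 9 were lower and 2 higher, with a median of -0.84. The study chose them on these libraries, so that this count is no independent evidence of a direction. The lower genes included Gzma, Maf, Ccr9, Gata3, Sox4 and Tcf12, whose values stand with their groups, Camk4 (-1.11 ± 0.17), a calcium-dependent kinase gene, and Lgals9 (-0.63 ± 0.12), a galectin gene, and the higher genes included Id3 (0.43 ± 0.12).

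Genes of the immature T lineage showed little common movement. Of 15 tested, 4 were lower and 2 higher, with a median of -0.20. Gata3, the factor that T lineage entry needs, was lower by -1.06 ± 0.12 (187, 178 and 111 CPM against 281, 378 and 290 CPM), Tox2 by -1.74 ± 0.21, Sox4 by -0.52 ± 0.09 and Tcf12 by -0.48 ± 0.12. Lef1 was higher by 0.38 ± 0.11, as was Id3, which receptor signals induce in γδ cells. Of 14 genes of DN2 and DN3 cells, 2 were higher and 1 lower, with a median of -0.14, with Kit (1.04 ± 0.25) and the Notch target Dtx1 (0.96 ± 0.27) higher and Cpa3 (-0.67 ± 0.14) lower. Dntt did not pass (-0.11 ± 0.09, adjusted p = 0.826). The receptor complex genes gave 2 higher and 2 lower of 11. Cd247, the ζ chain gene, was lower by -0.82 ± 0.11 and Trbc2, the second β constant gene, by -0.24 ± 0.05, while Tcrg-C4 was higher by 0.31 with an adjusted p of 0.03 and Fcer1g was the other higher gene. Tcrg-V1 did not pass (0.56, adjusted p = 0.18).

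Maturation and exit genes, which overlap the other lists in part, were higher in 9 of 23 tested and lower in 3, with a median of 0.10. S1pr1, the receptor that carries thymocytes into blood, was higher by 2.32 ± 0.22 (adjusted p = 3.86e-17), with 23.1 and 99.5 CPM against 4.15 and 19.7 CPM. In the second run its levels were 5.71 and 7.03 CPM. Klf2 was higher by 0.94 ± 0.12, Cd2 by 1.45 ± 0.15, Cd7 by 1.44 ± 0.16, S1pr4 by 0.70 ± 0.21, Cd28 by 0.79 ± 0.13, Itgb7 by 0.72 ± 0.17, Cd52 by 0.49 ± 0.08 and Bcl2 by 0.39 ± 0.11. Among the lower genes, Thy1 differed by -0.45 ± 0.09 and Ly6a by -0.66 ± 0.20. The chemokine receptor gene Ccr9, which holds progenitors and γδ cells to thymus and gut, was lower by -1.77 ± 0.10, at 110, 72.4 and 271 CPM against 403, 704 and 845 CPM, with no overlap between the groups. The Trdc+ Nkg7+ cells were also higher in 4 of 16 genes that follow receptor signals, and 1 was lower. Tnfrsf9, given below, was one of the 4, and it and Egr2 reached the filter in no library of the Sox13 set. Cd5, whose level follows receptor signal strength, differed by 0.83 ± 0.16, Nfkbia by 0.44 ± 0.13 and Dusp2 by 0.44 ± 0.13, whereas Dusp6 was lower by -1.17 ± 0.31.

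Interferon response genes were higher in 10 of 16 tested and lower in 1, with a median of 0.72. Ifit3 differed by 2.31 ± 0.38, Ifit1 by 1.80 ± 0.31, Samhd1 by 1.79 ± 0.20, Ifi27l2a by 1.72 ± 0.17, Irf7 by 1.13 ± 0.21, Isg20 by 0.84 ± 0.22, Rtp4 by 0.79 ± 0.19, Isg15 by 0.65 ± 0.19 and Bst2 by 0.49 ± 0.13. The one lower gene was Usp18, an inhibitor of the interferon receptor, at -1.08 ± 0.23. Levels were modest, with Ifit1 at 8.65 and 32.1 CPM against 3.69 and 8.20 CPM and Ifit3 at 2.88 and 24.7 CPM against 0.462 and 4.85 CPM. In the second run Ifit1 was higher (10.8 against 3.81 CPM) and Ifit3 was not (0.635 against 2.64 CPM). Many interferon response genes carry a promoter element that the interferon-activated factor ISGF3 binds, and the letters GAAA, any 2 bases and GAAA again were searched on both strands in RefSeq promoters (GRCm38.p6, 250 bases before to 50 after the start). The motif was held by 7 of the 11 genes of the list with a promoter in the table, 4 of the 7 higher genes and 3 of the 4 not called, against 298 of 7673 genes tested with a promoter there (3.88%) and 3.44% of all 32851 promoters. Samhd1, Irf7 and Isg20 were higher and had no match. Overlapping matches were counted. The promoters of Ifit1 and Isg15 are shown because the 2 hold the motif on opposite strands, with every base of a match in capitals.
Ifit1, chr19:34640639-34640938, plus strand: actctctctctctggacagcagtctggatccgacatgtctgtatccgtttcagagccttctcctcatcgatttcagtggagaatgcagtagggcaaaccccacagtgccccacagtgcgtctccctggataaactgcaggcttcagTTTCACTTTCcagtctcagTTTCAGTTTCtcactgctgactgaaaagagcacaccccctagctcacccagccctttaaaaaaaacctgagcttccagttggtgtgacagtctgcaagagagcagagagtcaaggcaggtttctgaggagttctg
Isg15, chr4:156200769-156201068, minus strand: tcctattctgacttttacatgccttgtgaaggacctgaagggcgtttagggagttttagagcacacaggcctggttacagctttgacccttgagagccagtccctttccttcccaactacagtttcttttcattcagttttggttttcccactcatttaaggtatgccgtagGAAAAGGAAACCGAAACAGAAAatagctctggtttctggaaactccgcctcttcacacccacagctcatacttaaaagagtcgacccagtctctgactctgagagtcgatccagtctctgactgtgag
Ifit1 held 2 matches, which read on the opposite strand and so appear as TTTC, 2 bases and TTTC, and Isg15 held 3 that overlap. A match describes these letters and does not show binding.

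**Figure D4:**
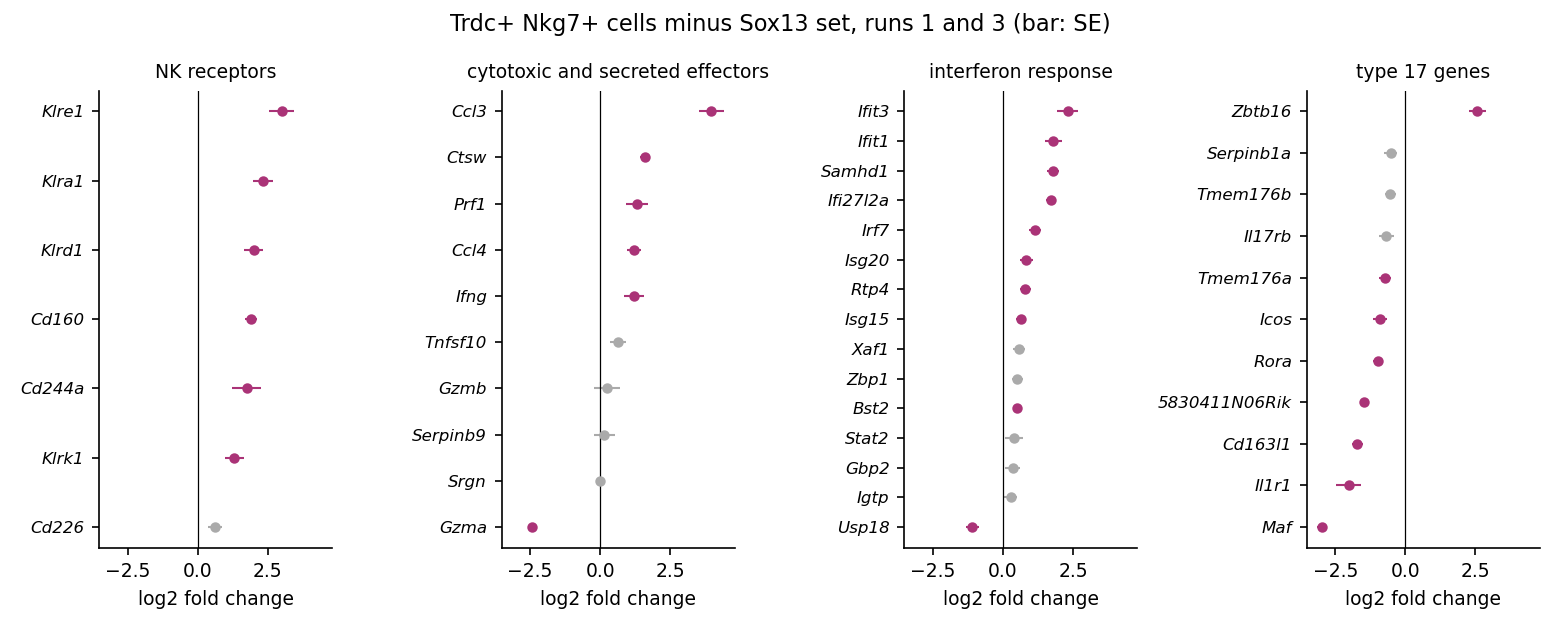
Log2 fold change (horizontal axes) of Trdc+ Nkg7+ cells over the Sox13 set in runs 1 and 3, for tested genes of 4 lists. Error bars are standard errors and coloured points passed an adjusted p of 0.05 in edgeR. NK receptor and interferon genes lie mostly to the right, type 17 genes to the left with Zbtb16 apart, and Gzma stands alone among the effectors at -2.42.

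Among the 10 widest changes in each direction were genes outside these lists. The filter shaped both ends. Trpm1, Ccl3, Tnfrsf9, Klre1 and Xdh reached it in no library of the Sox13 set, and Lingo4, Sdc4, Wfs1, Rtkn and Ankrd6 in none of the Trdc+ Nkg7+ cells, so that each was tested only because it was high in one group. Neurl3, Gimap3, Pglyrp1 and Zbtb16 reached it in 1 library of the Sox13 set. Tent5a reached it in 1 library of each group, and in run 1 it stood at 0.961 CPM against 0. None of the 10 higher genes thus reached it in all 4 libraries. Of the lower genes, Gm37552 reached it in 1 library of the Trdc+ Nkg7+ cells, and Maf, Myo6 and Tuba8 in all 4. Trpm1, on chr7:64153835-64269775 (mm10, plus strand), encodes a cation channel known from retina and melanocytes, and it was higher by 5.44 ± 0.54. Its level was 11.5, 9.84 and 19.4 CPM in the 3 runs against 0.462, 0.586 and 0.353 CPM. The Trpm1 levels of the groups did not overlap, and the UMIs were spread over 10, 17 and 38 cells. Tnfrsf9, on chr4:150914562-150946102 (mm10, plus strand), was higher by 3.36 ± 0.29 and stood at 34.6, 39.4 and 40.2 CPM against 2.77, 7.91 and 3.97 CPM. Trpm1 and Tnfrsf9 kept their direction in the second run, and both were highest in the bearing cells, where Trpm1 stood at 31.4, 25.7 and 31.2 CPM. Neurl3 (2.94 ± 0.35), a ubiquitin ligase gene, Xdh (2.90 ± 0.40), which encodes xanthine dehydrogenase, Gimap3 (2.87 ± 0.25), a GTPase gene of T cell survival, Pglyrp1 (2.68 ± 0.32), which encodes a peptidoglycan-binding protein, and Tent5a (2.54 ± 0.40), which encodes a poly(A) polymerase, completed the higher genes with Ccl3, Klre1 and Zbtb16. In the second run Gimap3 (15.6 against 16.4 CPM) and Ccl3 (3.81 CPM in both groups) were not higher, nor was Zbtb16. On the lower side Lingo4 differed by -4.39 ± 0.68 and Sdc4, a syndecan gene, by -3.53 ± 0.43. Myo6, a myosin gene, differed by -2.81 ± 0.24, Gm37552 by -2.76 ± 0.35, Wfs1 by -2.70 ± 0.43, Rtkn by -2.68 ± 0.73, Tuba8, a tubulin gene, by -2.65 ± 0.24 and Ankrd6 by -2.57 ± 0.47, beside Maf. Myo6 stood at 17.3, 8.57 and 7.41 CPM against 64.2, 158 and 75.1 CPM, apart in each run.

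Among the remaining lists, S100, annexin, galectin and related genes were higher in 5 of 14 tested and lower in 1 (median 0.26). Vim was higher by 0.60 ± 0.12 and Ahnak by 0.90 ± 0.23, and Crip1 was lower by -0.59 ± 0.05. Cytokine and chemokine receptor genes gave 2 higher and 2 lower of 17 (median 0.13), with S1pr1 and Il7r, the IL-7 receptor gene (0.59 ± 0.14), higher and Ccr9 and Ifngr1 (-0.48 ± 0.12) lower. Cell cycle genes were lower in 3 of 16 and higher in none (median -0.21), namely Ccnb1 (-0.68 ± 0.16), Ccnb2 (-0.47 ± 0.13) and Ube2c (-0.42 ± 0.11). Top2a did not pass (-0.22 ± 0.10, adjusted p = 0.308). Of the dissociation and heat shock genes 1 of 10 was lower and none higher, and it was Fos (-0.58 ± 0.16).

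The second run was read apart, since its cells were sorted as TCRγδ-. Of the 266 genes higher in runs 1 and 3, 146 (54.9%) lay in the same direction in the second, with a median log2 ratio there of 0.05. Of the 199 lower genes 173 (86.9%) did, with a median of -0.77. Over all genes tested the share with the same direction was 50.3%. The share for the genes called higher was near that of all genes tested, and the share for the genes called lower was above both, and the difference was not tested. The Trdc+ Nkg7+ cells of that run had the most Dntt (1460 CPM, against 894 and 391 CPM in runs 1 and 3), the most Cd24a (813 CPM, against 475 and 184 CPM) and the least S1pr1 (5.71 CPM) of the 3 runs. Dntt and Cd24a were highest in the second run in all cells within the limits too, with Dntt at 1019, 1244 and 872 CPM and Cd24a at 431, 669 and 317 CPM, so that this order was not particular to the group. Some heat shock and early response genes were also high there, with Hspa1a at 548 CPM against 29.8 and 8.46 CPM and Fos at 564 CPM against 23.1 and 136 CPM, while Hspa8, the most abundant of them, was not (1957 CPM against 2155 and 1245 CPM). The list summed to 3448, 5499 and 3420 CPM in the group and 3771, 5656 and 4154 CPM in all cells, so that the second run was the highest in both. The part of these genes in the differences between runs was not tested.

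**Figure D5:**
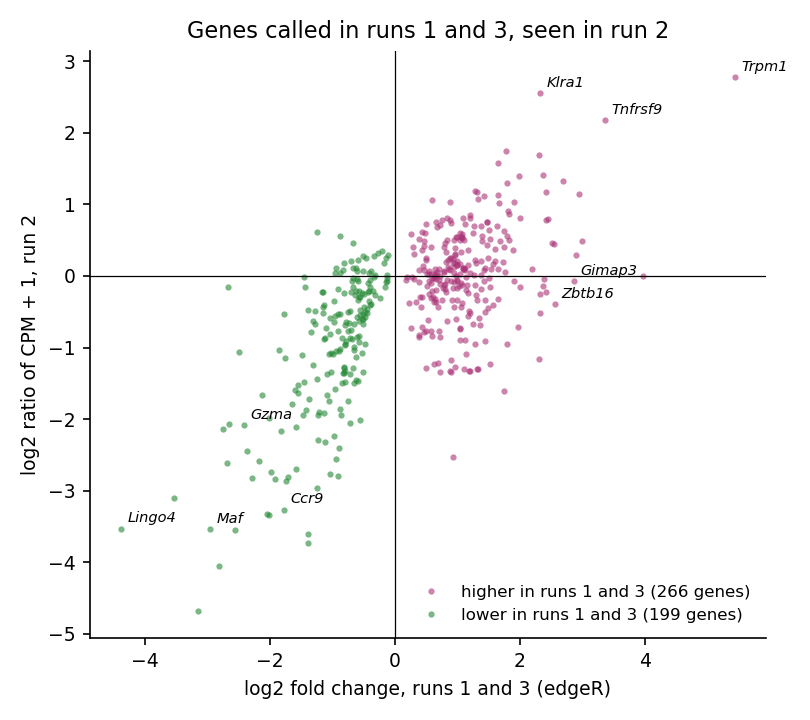
Log2 ratio of CPM + 1 of Trdc+ Nkg7+ cells over the Sox13 set in the second run (vertical axis) for the 465 genes called in runs 1 and 3, against their fitted log2 fold change in those runs (horizontal axis). Of the genes called higher 54.9% lie above 0 in run 2, and of the genes called lower 86.9% lie below 0.

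A further comparison set the Trdc+ Nkg7+ cells beside Trac counterparts, which met the same conditions on the 4 genes, Il2ra and the Sox13 genes but had Trac of 2 or more and Trdc of at most 1. These numbered 3, 1616 and 819, so that runs 2 and 3 were tested and run 1 was not. In runs 2 and 3, 1103 and 705 of the counterparts held an Il2rb UMI, against 59 of 494 and 149 of 303 Trdc+ Nkg7+ cells. Their median Nkg7 was 6 and 9 UMIs against 3 and 4. Median depth was 2688 and 5760 UMIs against 5608.5 and 7913. The highest 8% of doublet scores took in 1.79% and 3.30% of them against 10.3% and 9.24%. The part of these differences in the results below was not tested. Of 10222 genes, 1840 (18.0%) passed, 992 (9.70%) higher and 848 (8.30%) lower in the Trdc+ Nkg7+ cells. This fit too left 1 residual degree of freedom, and without the run as a block it called 0 genes, with 1423 at an unadjusted p under 0.05. The groups were divided by receptor constant genes of the same cells, and the test describes what lay beside these. NK receptor genes were lower in 16 of 20 tested, with none higher. Of the 20, 5 reached the filter in both libraries of the counterparts alone and 15 in all 4 libraries, and by level 21 of the 22 were lower in both runs. Klrd1 stood at 39.4 and 28.9 CPM against 1100 and 424 CPM in the counterparts, and Klrk1 at 30.5 and 23.3 against 678 and 405 CPM. Effectors were lower in 11 of 14 tested (4 of the 14 reached the filter in both libraries of the counterparts alone), with Gzmb at -5.86 ± 0.19 (14.6 and 7.76 CPM against 653 and 415 CPM). Tbx21 stood at 2.86 and 1.41 CPM against 72.5 and 58.6 CPM, and Id2 at 108 and 136 against 1995 and 1072 CPM. Trav11, the variable segment of invariant NKT cells, stood at 0 and 0.353 CPM against 44.4 and 18.8 CPM. Interferon response genes, of which 10 of 16 were higher than in the Sox13 set, ran the other way here. They were lower than in the counterparts in 10 of 16 tested and higher in 0, with a median of -1.12.

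Cell cycle genes were higher than in the Trac counterparts in 14 of 16 and lower in none, with a median of 2.20. Genes of DN2 and DN3 cells were higher in 7 of 12 and those of the immature T lineage in 8 of 16, with none lower in either list. Of the 12, 7 reached the filter in both libraries of the Trdc+ Nkg7+ cells but not in both of the counterparts and 0 the reverse, so that the filter favoured this direction. By level alone 11 of all 15 DN2 and DN3 genes were higher in both runs and 2 were lower, against 44.8% and 20.9% of all 15241 genes with a count. Of the immature lineage genes 2, Sox5 and Tox2, passed the filter in no library of the counterparts. Dntt stood at 1460 and 391 CPM against 85.3 and 45.8 CPM, and Stmn1, a gene of dividing cells, at 2050 and 1155 against 175 and 234 CPM. Tcf7l2 differed by 4.53 ± 0.47 and Auts2 by 4.85 ± 0.56, and both were tested through the Trdc+ Nkg7+ libraries alone. Beside the Trac counterparts, the Trdc+ Nkg7+ cells thus held less of each NK receptor and effector gene called and more of each cell cycle gene called.

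Markers of other cells were detected at levels that differed by list. Of 10 NK cell markers, 6, 7 and 10 were detected, with a summed level of 30.8, 106 and 165 CPM against 1704 and 1217 CPM in the Trac counterparts of runs 2 and 3, and Fcer1g was the most abundant. Of 8 B cell markers, 2, 4 and 8 were detected, summing to 328, 360 and 363 CPM, most of it Ighm, which DN thymocytes also transcribe. The Trac counterparts of runs 2 and 3 held more, 1190 and 2585 CPM, most of it Igkc (993 and 2422 CPM, against 47.0 and 72.3 CPM), and Igha, at 485 and 1283 CPM there against 13.3 and 12.0 CPM, was among the widest changes (-6.22 ± 0.42). Cd79a, a defining B cell gene, stood at 0, 0.317 and 24.0 CPM, and in the third run at 41.4 CPM in the bearing cells and 2.37 CPM in those with Nkg7 alone. Of 10 markers of group 2 and 3 innate lymphoid cells, 3, 6 and 6 were detected, summing to 28.8, 23.5 and 38.8 CPM. Erythroid genes summed to 1.92, 78.4 and 5.29 CPM, myeloid and dendritic genes to 170, 205 and 180 CPM with Cst3 the most abundant, and stromal and epithelial genes to 106, 119 and 138 CPM with Pecam1 the most abundant. The αβ T and NKT markers, with Trac left out as a gene of the rule, summed to 4503, 3894 and 4679 CPM. Nearly all of it was Trbc1 and Trbc2, which DN thymocytes transcribe. The same sum was 2450 and 2562 CPM in the Trac counterparts of runs 2 and 3. Trac itself gave 61 and 66 UMIs in the Trdc+ Nkg7+ cells of those runs and 8279 and 3935 in the counterparts, as the choice of cells required. Of the tested markers, Fcer1g and Tyrobp of 3 NK genes were higher than in the Sox13 set, Ighm of 6 B cell genes was lower (-0.60 ± 0.11), Tnfsf11 of 2 innate lymphoid genes was lower (-1.83 ± 0.22), and of the 5 αβ T and NKT genes Zbtb16 was higher and Trbc2 lower. None of the 3 myeloid and 2 stromal genes passed. The gates of all 3 runs left out cells staining for NK1.1, B220, CD11b, CD11c or TCRβ, and the part of any such cells that remained in the NK receptor and Eomes levels was not tested.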

How the data were processed

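Single-cell RNA was measured in 3 libraries of mouse thymocytes, deposited as raw UMI counts per gene and cell. The authors made these counts with Cell Ranger (the third run's header names version 4.0.0; which version made the others was not given in the sources used here) on mm10, and the deposited counts were not normalised. Deposited totals were 39947415, 52797915 and 98533329 UMIs. Limits of 500 to 5000 detected genes and 7% mitochondrial counts left 21879 of 23283 cells. Scrublet marked 0 cells in the first run, where it had not worked, and doublets were left in; an alternative left out the highest 8% of scores in each run. Genes were matched between runs by identifier, 27734 being listed in all 3.

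Levels are CPM of counts summed over the cells of a group and run, with exact Poisson intervals at 95%. They compare one gene between groups and are not per length. Summed counts were tested with edgeR 4.0.16 (quasi-likelihood, TMM, low counts filtered, run as a block, Benjamini-Hochberg over all genes tested), with DESeq2 1.42.0 as an alternative. The run is the library itself, so both groups of a pair come from the same pooled animals. Each run is 1 library. The block takes up the spread between runs, so p-values do not measure it. They rest on how unevenly the groups differed in 2 runs with different gates, with 1 residual degree of freedom. The rest of the spread was borrowed from other genes, with 155.94 prior degrees of freedom against the Sox13 set and 3.87 against the Trac counterparts. The test was tried on simulated data with 200 genes changed 3-fold, by the same amount in both runs. There edgeR called 195 genes, 183 of them changed and 12 false. DESeq2 called 118, with 117 changed and 1 false. How either fares where the runs differ was not simulated. Promoters came from RefSeq and exon sequences from GENCODE. R 4.3.3, Python 3.11.15 and scanpy 1.11.5 were used.

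The members and lists were chosen with earlier results of these data known. Genes were named if they belonged to the rule, were among the 10 widest called changes per direction with the same direction in both runs and at least 20 UMIs in the higher group, stood out in a list by level or change, were receptor γ or δ genes with at least 5 UMIs, or marked other cell types. Genes discussed beyond this (Hspa1a, Cd79a by kind of cell, concentration in single cells) were chosen after their values were seen.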

Additional observations from a re-analysis of the deposited data

Results flagged for a closer look

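In 10 genes of the lists the Trdc+ Nkg7+ cells lay above the Sox13 set in run 1 and below it in run 3. Levels were compared by the log2 ratio of CPM + 1. These 10 were kept because the exact Poisson intervals of the groups were apart in both runs. They are no count of all genes that turned. By level alone, 3 of 15 DN2 and DN3 genes were higher in both runs and 2 lower. Of 11 receptor complex genes 3 were higher in both runs and 3 lower. Over all 15451 genes with a count the shares were 21.9% and 20.1%. With 1 library in each run the difference between the runs was not tested. The ratios in runs 1 and 3 were 1.17 and -1.001 for Hes1, 0.67 and -0.73 for Ptcra, and 0.41 and -0.54 for Dntt. They were 0.42 and -0.60 for Myb, 0.36 and -0.62 for Bcl11b, and 0.66 and -0.34 for Cd24a. They were 0.49 and -0.48 for Tcrg-C1, 0.50 and -0.11 for Cd3g, 0.32 and -0.26 for Ly6e, and 0.194 and -0.070 for Trbc1. Cells with Nkg7 alone, in which these 10 genes were higher than in the bearing cells in both runs, made up 82.0% of the group in run 1 and 42.6% in run 3. The part of this share in the turned ratios was not tested.

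The second run was sorted without cells that stain for TCRγδ, and 5.58% of its cells met the rule.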

How the results depend on the processing

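Against the Sox13 set, the count of 465 genes changed to 249 with the RLE size factors, 53 with DESeq2, 0 without the run as a block (the pairing of both groups within a library), 165 with each cell thinned to 1500 UMIs, 298 at 5% mitochondrial counts, 251 with Trdc of 3 or more and 239 with Trac of 0. It was 93 (19 higher, 74 lower) with the second run added as a block, 52 with runs 2 and 3 and 133 with runs 1 and 2. The other settings on cells and genes left it between 371 and 516, including 455 with Il2ra and Trac limited in the Sox13 set too. Against the Trac counterparts, 1840 became 0 without the block (1423 at an unadjusted p under 0.05) and 1154 thinned. The share of cells in the first run became 2.79% with Trdc of 3 or more, 1.65% with a sum of 3 or more, 2.65% with no Sox13, Etv5 or Blk and 1.21% thinned before the rule; in the second 4.58%, 3.62%, 4.50% and 2.33%, and 4.89% with Trac of 0; in the third 3.16% with Trac of 0, 3.36%, 2.996% and 1.64%. The causes were not tested. Over all settings 212 of 268 values of the named genes stayed past the threshold, 56 did not and 0 reversed. Against the Trac counterparts 169 of 192 stayed. Genes that a setting left untested gave no value and are outside these numbers. Thinning left 5 of the 20 named genes of each comparison, and leaving out the highest 8% of doublet scores left 16 and 17. Of 72 levels in the group, 34 left their counting interval, 26 of 36 after thinning to 1500 UMIs and 8 of 36 without the highest 8% of doublet scores. The Trac counterparts of the first run, with 3 cells, were left out by choice, and no fit with them was run. Levels of the low genes, such as Tbx21, rest on few UMIs, and the part of depth in them was not tested.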
